A study of Mus musculus with 12 samples.

Results

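The amino acid transporter genes are here the protein-coding genes whose symbols begin with Slc1a, Slc3a, Slc7a, Slc36a, Slc38a or Slc43a and go on with a number. Of 43 such symbols, 37 had a value above 0 in at least 3 of the 12 libraries and are the members, out of 51912 genes in the table and 20740 that met the same value rule. RNA was sequenced from ventricles of untreated mouse hearts, with 3 libraries from each sex of each genotype, WT and LCHADD. The series concerns acute arrhythmias in a mouse model of LCHADD, which is a deficiency of long-chain 3-hydroxyacyl-CoA dehydrogenase and blocks the mitochondrial oxidation of long-chain fatty acids. None of the sources used here gives the mutant allele, the strain or the age of the mice. The labels do not say that the libraries of a group come from separate animals, so p-values measure the spread between these libraries.

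These genes code for carriers that move amino acids across the cell surface or the lysosomal membrane. Some work alone, and others are pairs in which a glycoprotein heavy chain brings a transporting light chain to the membrane. They supply cells with glutamine, leucine, arginine and cystine for protein synthesis, for signalling through the kinase mTORC1 and for glutathione, the main soluble antioxidant. Several of them are textbook targets of ATF4, a transcription factor whose translation rises when amino acids are short or proteins misfold.

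Values are normalised reads, the reads of a gene divided by a size factor of its library, and log2 changes and folds are those of normalised reads + 1. Of the 37 members, 31 reached 10 normalised reads in at least 3 libraries and were tested, 29 of them also by their WT libraries alone. Slc3a1, Slc7a10, Slc7a13, Slc7a15 and Slc38a5 stayed under 10 in every library, and Slc38a11 had a highest value of 12.1. One tested member, Slc7a6os, meets the naming rule but is a gene on the strand opposite Slc7a6 and not a transporter, and Slc43a3 is known as a carrier of purine nucleobases. Libraries held 15.6 M to 23.2 M reads, of which mitochondrial genes took 29.3% ± 1.94 in WT and 34.4% ± 2.70 in LCHADD (SD, n = 6). The summed level of 6 cardiomyocyte markers was 804172 to 874000 normalised reads in WT and 409891 to 765463 in LCHADD, with the lowest sum in LCHADD female 2. The summed level of 6 endothelial markers was 10894 to 11845 in WT and 8711 to 10013 in LCHADD, that of 5 fibroblast markers 7118 to 8283 and 4993 to 6179, and that of 5 macrophage markers 1008 to 1297 and 984 to 1237. For smooth muscle and pericytes (4 markers) the sums were 7978 to 9522 and 5920 to 8550, and for red blood cells (3 markers) 2209 to 3630 and 568 to 1594. The 3 atrial markers summed to 21.6 to 35.1 in WT and 18.3 to 36.1 in LCHADD, those of adipocytes (3) to at most 41.9 and 10.6, of Schwann cells (3) to 50.8 to 83.9 and 25 to 58.1, and of lymphocytes (3) to 16.4 to 39.9 and 6.34 to 24. No marker of these lists was at 0 in all libraries, and the part of cell composition in the results was not tested. In bulk tissue, fewer cells of a type and less RNA per cell cannot be told apart.

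LCHADD ventricles had higher mRNA levels of 15 members and lower levels of 4 in the mean of both sexes, at a limma adjusted p under 0.05 across all genes tested. Over all 13865 tested genes 40.8% passed in that comparison, 20.3% higher and 20.6% lower. In females 13 members were higher and 5 lower, where 33.8% of all genes passed (16.7% higher, 17.2% lower). In males 10 were higher and 2 lower, where 15.5% of all genes passed (7.71% higher, 7.77% lower). All 10 members that rose in males also rose in females, the 2 that fell in males (Slc36a2 and Slc43a3) also fell in females, and none went opposite ways. Slc7a3 and Slc7a11, which are in all 3 counts of rises, were tested only through their LCHADD libraries. Of the 29 members over the limit by WT alone, 13 rose and 4 fell in the mean of both sexes. In females 11 of these rose and 5 fell, and in males 8 and 2. The median log2 change of the tested members was 0.25 in the mean of both sexes, that of the 29 members over the limit by WT alone was 0.05, and that of all genes was 0.00. The 6 LCHADD libraries all lay above the 6 WT libraries for 10 members, Slc1a2, Slc1a4, Slc3a2, Slc7a3, Slc7a5, Slc7a6, Slc7a11, Slc38a1, Slc38a2 and Slc38a7, and all below them for Slc36a2. Such separation was seen upwards in 9.82% and downwards in 9.91% of all genes, and for Slc7a3 and Slc7a11 a rise was a condition of testing. When libraries were scaled by their nuclear reads, the split over all genes in the mean of both sexes went from 2808 higher and 2853 lower to 3317 and 2457, while that of the members stayed at 15 and 4.

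**Figure D1:**
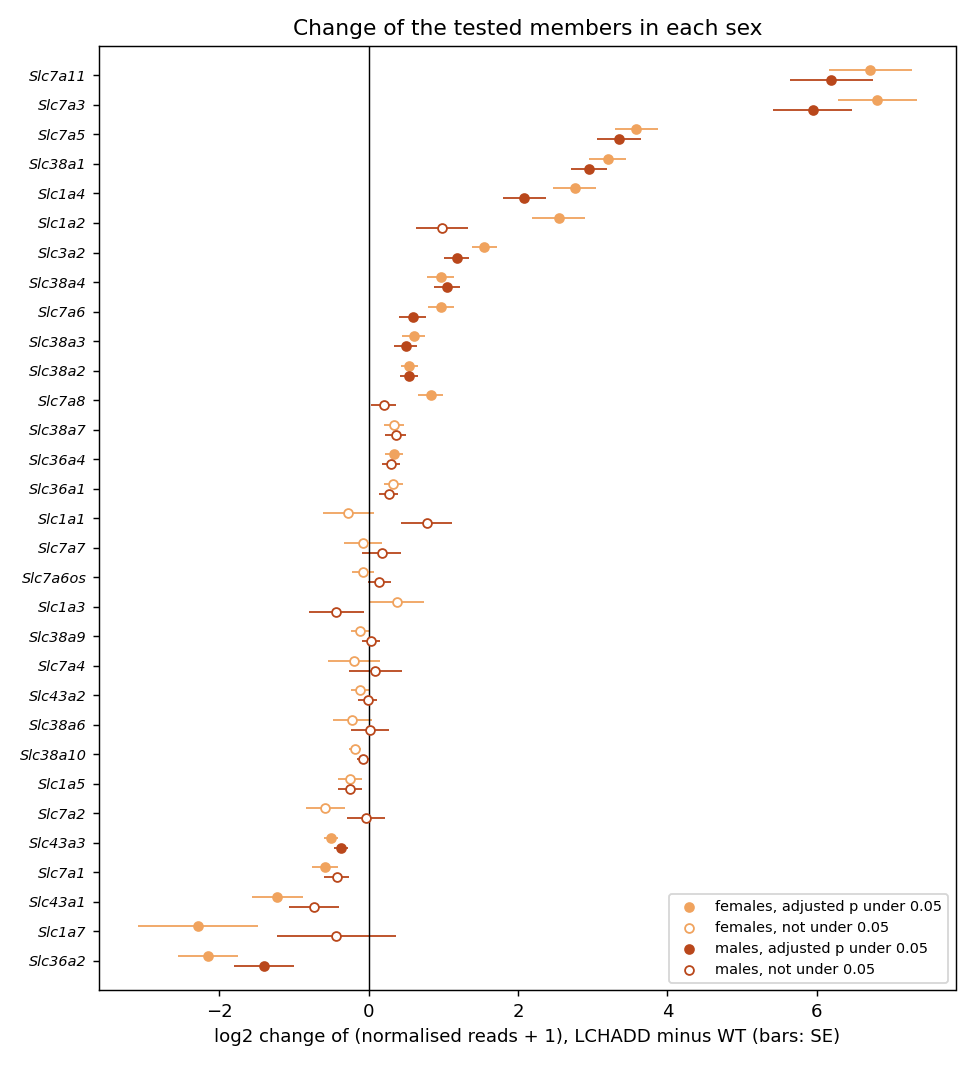
Change of each of the 31 tested members in females and in males, as the log2 difference of (normalised reads + 1), LCHADD minus WT, with the SE of the fit as bars. Filled points passed at an adjusted p under 0.05 (limma). Slc7a11 and Slc7a3 stand far to the right at 5.95 to 6.81, and Slc36a2 fell in both sexes.

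Slc7a11 and Slc7a3 went from a few reads to clear expression. Slc7a11 codes for xCT, the light chain that takes up cystine in exchange for glutamate. It had 0.783, 0 and 2.57 normalised reads in the 3 WT female libraries, 0, 1.23 and 0 in the WT males, 141, 446 and 115 in the LCHADD females and 137, 79.0 and 78.5 in the LCHADD males. Every LCHADD library was far above every WT library, and LCHADD female 2 was the highest. Slc7a3 codes for CAT3, a carrier of arginine and lysine best known from brain. It had 1.57, 0 and 0.856 normalised reads in the WT females, 0, 0 and 0.865 in the WT males, 163, 400 and 100 in the LCHADD females and 117, 49.2 and 72.8 in the LCHADD males. The order of the LCHADD libraries began, as for Slc7a11, with LCHADD female 2, and the groups again did not overlap. Over all libraries Slc7a11 had 5 reads in WT and 966 in LCHADD. These pooled reads, divided by the summed size factors of their libraries, gave a ratio of 227 with an exact 95% interval of 96.8 to 699. Slc7a3 had 4 reads in WT and 875 in LCHADD, a ratio of 257 in the same measure with an interval of 99.8 to 944. Without LCHADD female 2 the ratios were 146 (62.0 to 451) for Slc7a11 and 166 (64.5 to 613) for Slc7a3. These intervals cover counting error only. On the log2 scale with 1 added, which understates such changes, the mean change over both sexes was 6.45 (SE 0.39, adjusted p = 1.54e-08) for Slc7a11 and 6.38 (SE 0.37, adjusted p = 1.11e-08) for Slc7a3. Both passed the filter on low values only through LCHADD libraries, so a rise was a condition of their being tested. Without LCHADD female 2 the log2 change in females was 6.12 for Slc7a11 and 6.26 for Slc7a3, against 6.71 and 6.81 with it.

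**Figure D2:**
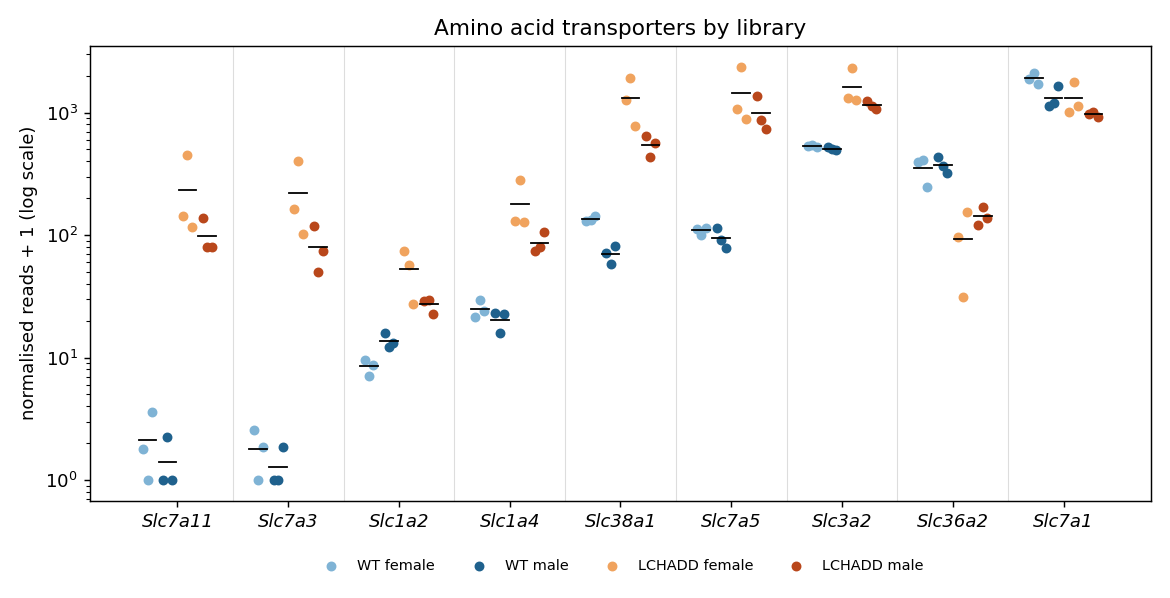
Normalised reads + 1 on a log scale for 9 members in the 12 libraries, with points for libraries and a line at the mean of each group of 3. Slc7a11 and Slc7a3 lie at 0 to 2.57 normalised reads in WT and at 49.2 or more in LCHADD, and the values of Slc7a1 overlap between the genotypes.

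Promoter sequences of RefSeq on build GRCm38.p6, from 250 bases before to 50 after each start, were used for 27 members (37 starts). Not among them are Slc1a5, Slc7a2, Slc7a3, Slc7a4, Slc7a5, Slc7a13, Slc36a2, Slc38a1, Slc38a3 and Slc43a3. They were searched on both strands for TGATGNAA, the amino acid response element read by ATF4 and its partners, and for TGACNNNGC, the core of the antioxidant response element read by NRF2. The sequences shown are those of Slc7a11, which rose from near 0, of Slc1a4 and Slc38a2, which rose from an existing level, and of Slc7a7, which holds 2 matches and did not pass the test. All are written 5′ to 3′ on the strand of the gene, with the matches in capitals. That of Slc7a11 is chr3:50443614-50443863 on the minus strand, the 250 bases before its start. Those of Slc1a4 (chr11:20332710-20332777), Slc7a7 (chr14:54417938-54418115) and Slc38a2 (chr15:96699729-96699828) also lie on the minus strand.
Slc7a11: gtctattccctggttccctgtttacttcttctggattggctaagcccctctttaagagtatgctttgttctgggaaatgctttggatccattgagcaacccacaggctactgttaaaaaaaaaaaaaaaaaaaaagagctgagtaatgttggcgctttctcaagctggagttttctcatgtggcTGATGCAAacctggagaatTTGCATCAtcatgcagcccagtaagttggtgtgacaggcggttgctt
Slc1a4: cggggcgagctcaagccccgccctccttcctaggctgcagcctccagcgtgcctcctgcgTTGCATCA
Slc7a7: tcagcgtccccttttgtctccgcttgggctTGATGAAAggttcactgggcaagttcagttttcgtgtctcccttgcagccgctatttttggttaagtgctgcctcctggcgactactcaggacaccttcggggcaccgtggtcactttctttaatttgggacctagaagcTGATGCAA
Slc38a2: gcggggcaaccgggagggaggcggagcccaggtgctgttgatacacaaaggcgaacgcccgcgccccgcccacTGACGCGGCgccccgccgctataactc
Slc7a11 held 2 copies of TGATGCAA facing each other, with first bases at -66 and -47 (the base before the start is -1). Slc1a4 held 1 copy on the opposite strand at -4, which crosses the start. One of the Slc7a7 promoters held TGATGAAA at -141 and TGATGCAA at -1, which crosses the start, both on the strand of the gene. TGATGNAA was found in 3 of the 27 members (Slc7a11, Slc1a4 and Slc7a7) and in 4.51% of all 27025 genes with a promoter sequence, and 0.07% of all 32851 promoters held 2 or more, those of Slc7a11 and Slc7a7 among them. TGACNNNGC was found in 5 of the 27 members (Slc36a1, Slc38a2, Slc43a1, Slc7a1 and Slc7a6) and in 14.0% of all genes, and no member held both motifs. Among members with a promoter sequence, TGATGNAA was present in 2 of the 11 that rose and in 1 of 16 others, and TGACNNNGC in 3 of 11 and 2 of 16. A match describes letters in this window and no binding.

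The heavy chain Slc3a2 and 4 of the 5 tested light chains of paired carriers rose in the mean of both sexes, and none fell. Over all genes 20.3% rose and 20.6% fell in that comparison. Slc7a11, tested only through its LCHADD libraries, is among the 4, and the others are Slc7a5, Slc7a6 and Slc7a8. Slc3a2 codes for 4F2hc (CD98), the heavy chain of Slc7a5, Slc7a6, Slc7a7, Slc7a8, Slc7a10 and Slc7a11. It had 534, 545 and 521 normalised reads in the WT females, 518, 507 and 491 in the WT males, 1305, 2324 and 1266 in the LCHADD females and 1239, 1124 and 1073 in the LCHADD males. The WT libraries lay close together and all LCHADD libraries lay above them, a mean log2 change of 1.36 (SE 0.12, adjusted p = 4.18e-07), or 2.57-fold. Slc7a5 codes for LAT1, the light chain that takes up leucine and other large neutral amino acids. It had 112, 99.7 and 113 normalised reads in the WT females, 113, 90.0 and 77.8 in the WT males, 1060, 2374 and 888 in the LCHADD females and 1356, 867 and 733 in the LCHADD males. Here too the genotypes did not overlap, and the mean log2 change was 3.47 (SE 0.20, adjusted p = 1.14e-08), or 11.1-fold. Slc7a6, the y+LAT2 chain that exchanges cationic for neutral amino acids, rose by 0.78 (SE 0.13, adjusted p = 0.000176) from 117 to 163 normalised reads in WT to 183 to 360 in LCHADD. Its call in males alone (0.59, adjusted p = 0.0357) was lost without WT male 1 or 3 or LCHADD male 1 or 3, with adjusted p up to 0.151. Slc7a8, the LAT2 chain for neutral amino acids, rose in females (0.83, SE 0.17, adjusted p = 0.00133), and in males its change was 0.20 (adjusted p = 0.443). Slc7a7, the y+LAT1 chain, did not pass in any genotype comparison (0.05, SE 0.18 in the mean of both sexes). It overlaps the more abundant Oxa1l on the opposite strand, and no source used here says whether reads were counted by strand. The other heavy chain, Slc3a1 (rBAT, of kidney and gut cystine transport), had at most 3.88 normalised reads in any library.

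Levels of different genes were compared as normalised reads per kb of exon. The length was that of all annotated exons of a gene together and not of the transcript expressed. Ratios, shares and ranks between genes depend on it. Slc3a2 went from 147 ± 5.47 per kb in WT to 393 ± 132 in LCHADD (SD, n = 6). The sum of its 6 light chains went from 81.2 ± 3.94 to 422 ± 189 per kb. The ratio of light chains to heavy chain was thus 0.526 to 0.571 in the WT libraries and 0.909 to 1.29 in the LCHADD libraries, without overlap. Slc7a5 made up 28.0% to 38.3% of the light chain sum in WT and 71.5% to 81.5% in LCHADD. Slc7a11 made up at most 0.221% of it in WT and 1.86% to 4.07% in LCHADD, so most of the added light chain mRNA was Slc7a5. These sums and shares are descriptions and were not tested.

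**Figure D3:**
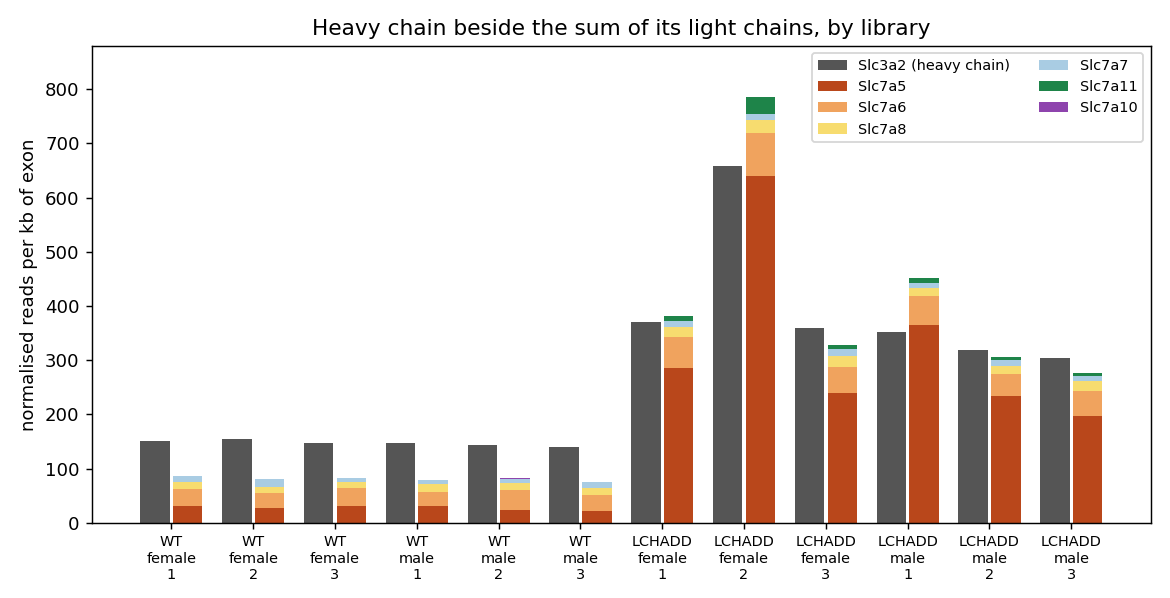
Normalised reads per kb of exon of the heavy chain Slc3a2 (grey bars) and of its 6 light chains (stacked bars) in each library. In WT the stack reaches 0.526 to 0.571 of the grey bar, in LCHADD 0.909 to 1.29, and Slc7a5 fills most of the LCHADD stacks.

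Among the carriers of cationic amino acids, Slc7a3 rose and Slc7a1 fell. Slc7a1 codes for CAT1, the general carrier of arginine and lysine. It had 1880, 2103 and 1720 normalised reads in the WT females, 1125, 1187 and 1641 in the WT males, 1018, 1766 and 1128 in the LCHADD females and 967, 1005 and 925 in the LCHADD males. The genotypes overlapped over all libraries and in females, where LCHADD female 2 lay within the WT range, but not in males. Its log2 change over both sexes was -0.50 (SE 0.12, adjusted p = 0.00386), -0.58 in females (adjusted p = 0.0167) and -0.43 in males (adjusted p = 0.108). The call in females was lost without WT female 2 or LCHADD female 1 and in a fit of females alone (adjusted p 0.0546 to 0.087). Without LCHADD female 2 the male change of -0.43 passed (adjusted p = 0.00776). Per kb, Slc7a1 made up 94.8% to 97.4% of the sum of Slc7a1, Slc7a2 and Slc7a3 in WT and 58.3% to 82.7% in LCHADD. Slc7a3 made up at most 0.245% of it in WT and 12.3% to 40.3% in LCHADD. Slc7a2 (CAT2) and Slc7a4, a relative with no settled substrate, did not pass in the mean of both sexes, with log2 changes of -0.31 (SE 0.18) and -0.05 (SE 0.25). Slc7a4 overlaps P2rx6 on the opposite strand.

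The sodium-coupled carriers of glutamine and other neutral amino acids included the most abundant members. In the mean of both sexes 5 of the 8 tested rose and none fell, where 20.3% of all genes rose and 20.6% fell. Slc38a1 (SNAT1), a glutamine carrier, had 129, 132 and 141 normalised reads in the WT females, 70.7, 56.7 and 80.4 in the WT males, 1269, 1929 and 773 in the LCHADD females and 639, 435 and 560 in the LCHADD males. All LCHADD libraries lay above all WT libraries, and within each genotype all females lay above all males. The mean change was 3.08 (SE 0.17, adjusted p = 8.05e-09), or 8.43-fold. Slc38a2 (SNAT2), whose mRNA is known to be induced when amino acids are withdrawn, had 2851, 3152 and 3204 normalised reads in the WT females, 2529, 2710 and 2920 in the WT males, 3936, 5319 and 4286 in the LCHADD females and 4408, 4285 and 3297 in the LCHADD males. The groups did not overlap, and the change was 0.55 (SE 0.08, adjusted p = 0.000109), or 1.46-fold. Slc38a3 (SNAT3), which carries glutamine, asparagine and histidine, had 2335, 1745 and 1781 in the WT females, 1843, 1562 and 1978 in the WT males, 2930, 3732 and 2332 in the LCHADD females and 2843, 2474 and 2270 in the LCHADD males. The genotypes overlapped through the highest WT library, WT female 1, and the mean change was likewise 0.55 (SE 0.11, adjusted p = 0.000895). Its call in males (0.50, adjusted p = 0.04) was lost on leaving out any one male library or LCHADD female 1, with adjusted p up to 0.163. Slc38a4 (SNAT4) rose by 1.01 (SE 0.12, adjusted p = 1.54e-05), to similar extents in females (0.96) and males (1.05). Slc38a7, which exports glutamine and asparagine from lysosomes, rose by 0.35 (SE 0.10, adjusted p = 0.0079). Slc38a10, also abundant, had 1871, 1910 and 1919 normalised reads in the WT females, 1880, 1762 and 1884 in the WT males, 1721, 1465 and 1842 in the LCHADD females and 1811, 1681 and 1763 in the LCHADD males. The genotypes overlapped, LCHADD female 2 was the lowest library, and the change was -0.13 (SE 0.06, adjusted p = 0.0833). Without LCHADD female 3 that change was -0.17 and passed (adjusted p = 0.0212). Slc38a9, the lysosomal arginine sensor of mTORC1, had a change of -0.04 (SE 0.09, adjusted p = 0.744), and Slc38a6 one of -0.10 (SE 0.18).

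In the Slc1 family 2 of 6 members rose in the mean of both sexes, where 20.3% of all genes did. With 6 genes this count says little about the family. Slc1a4 codes for ASCT1, which exchanges serine, alanine and cysteine. It had 20.3, 28.6 and 23.1 normalised reads in the WT females, 21.9, 14.8 and 21.6 in the WT males, 129, 282 and 128 in the LCHADD females and 72.9, 79.0 and 105 in the LCHADD males. The genotypes did not overlap, and the mean change was 2.42 (SE 0.20, adjusted p = 3.79e-07), or 5.36-fold. Slc1a2 codes for GLT-1, a glutamate carrier best known from astrocytes. It had 8.61, 6.07 and 7.70 normalised reads in the WT females, 14.9, 11.1 and 12.1 in the WT males, 73.3, 56.3 and 26.4 in the LCHADD females and 28.1, 28.6 and 21.6 in the LCHADD males. Every LCHADD library again lay above every WT library, and the WT females were below the WT males. Its log2 change was 2.54 in females (SE 0.35, adjusted p = 6.44e-05) and 0.98 in males (SE 0.35, adjusted p = 0.0711). The male change passed without LCHADD female 3 and in a fit of males alone (adjusted p = 0.0295 to 0.0389). Slc1a5 (ASCT2), the glutamine carrier most studied in tumours, had 103 to 196 normalised reads in WT and 101 to 139 in LCHADD, with a change of -0.25 (SE 0.11, adjusted p = 0.0962). Without WT female 3 its change was -0.32 and passed. The glutamate carriers Slc1a1 and Slc1a3 changed by 0.25 (SE 0.24) and -0.03 (SE 0.26) and did not pass, and Slc1a1 overlaps another gene on the opposite strand. Slc1a7, another glutamate carrier, had at most 16.5 normalised reads and a change of -2.28 in females (adjusted p = 0.0384). That call was lost without WT female 2 or 3, WT male 2 or LCHADD female 2, the last with a change of -1.59 (adjusted p = 0.131). In the mean of both sexes the change of -1.36 did not pass (adjusted p = 0.0676), but it did without WT male 1, LCHADD female 3 or LCHADD male 3, reaching -1.74 at most.

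Proton-coupled and facilitative carriers held 3 of the 4 falls in the mean of both sexes, where 20.6% of all genes fell. Of 3 tested proton-coupled members 1 fell and 2 rose. Of 3 tested facilitative members 2 fell, and 1 of these is Slc43a3, the purine carrier named above. Slc36a2 codes for PAT2, which carries glycine, alanine and proline with protons. It had 390, 412 and 246 normalised reads in the WT females, 436, 363 and 322 in the WT males, 95.1, 30.1 and 152 in the LCHADD females and 119, 167 and 138 in the LCHADD males. All LCHADD libraries were below all WT libraries, and LCHADD female 2 was the lowest. The log2 change over both sexes was -1.77 (SE 0.28, adjusted p = 0.000148), -2.15 in females and -1.40 in males (adjusted p = 0.0265). Without LCHADD female 2 the female change was -1.5. The male call was lost without any WT male or without LCHADD male 1 or 3 (adjusted p 0.0573 to 0.101). Its relatives Slc36a1 and Slc36a4, which are found on lysosomes, rose slightly, by 0.30 (SE 0.09, adjusted p = 0.0156) and 0.32 (SE 0.08, adjusted p = 0.00667). Slc36a1 did not pass in females (adjusted p = 0.0593, under 0.05 in 4 alternatives) or in males (adjusted p = 0.176). Slc36a4 passed in females (adjusted p = 0.0389), a call lost in 8 of 23 alternatives, and not in males (adjusted p = 0.0987). Slc43a1 (LAT3), a carrier of leucine and other branched-chain amino acids, had 19.9 to 34.4 normalised reads in WT and 8.75 to 22.2 in LCHADD. That was a log2 change of -0.97 (SE 0.24, adjusted p = 0.00445), and its call in females (-1.22) was lost without LCHADD female 1 (log2 change -0.97, adjusted p = 0.0537). Slc43a3 fell by 0.43 (SE 0.07, adjusted p = 0.000103), and its call in males was lost without WT male 2 or LCHADD male 2 (adjusted p 0.0647 to 0.0668). Slc43a2 (LAT4), the closest relative of LAT3, had a change of -0.06 (SE 0.09, adjusted p = 0.607).

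The order of mRNA levels per kb of exon, with Slc7a6os left out, differed between the genotypes. In WT the highest was Slc38a3 (355 ± 49.9 per kb), followed by Slc38a2 (327 ± 29.2) and Slc38a10 (291 ± 8.79), and the ranges of Slc38a3 and Slc38a2 overlapped. In LCHADD Slc38a3 (524 ± 103) and Slc38a2 (481 ± 74.7) were again the highest 2, also with overlapping ranges, and then came Slc3a2 (393 ± 132) and Slc7a5 (327 ± 164). Slc7a5 was thus 15th in WT and 4th in LCHADD, Slc38a1 20th and 10th, Slc7a3 33rd and 15th, Slc7a11 36th and 20th, and Slc36a2 7th and 16th. Summed over all members but Slc7a6os, and so with Slc43a3, the level was 1819 to 2021 per kb in WT and 2324 to 3934 in LCHADD. Slc38a2 made up 15.5% to 18.8% of that sum in WT and 15.3% to 19.4% in LCHADD, while Slc7a5 went from 1.09% to 1.64% to 8.50% to 16.3%.

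**Figure D4:**
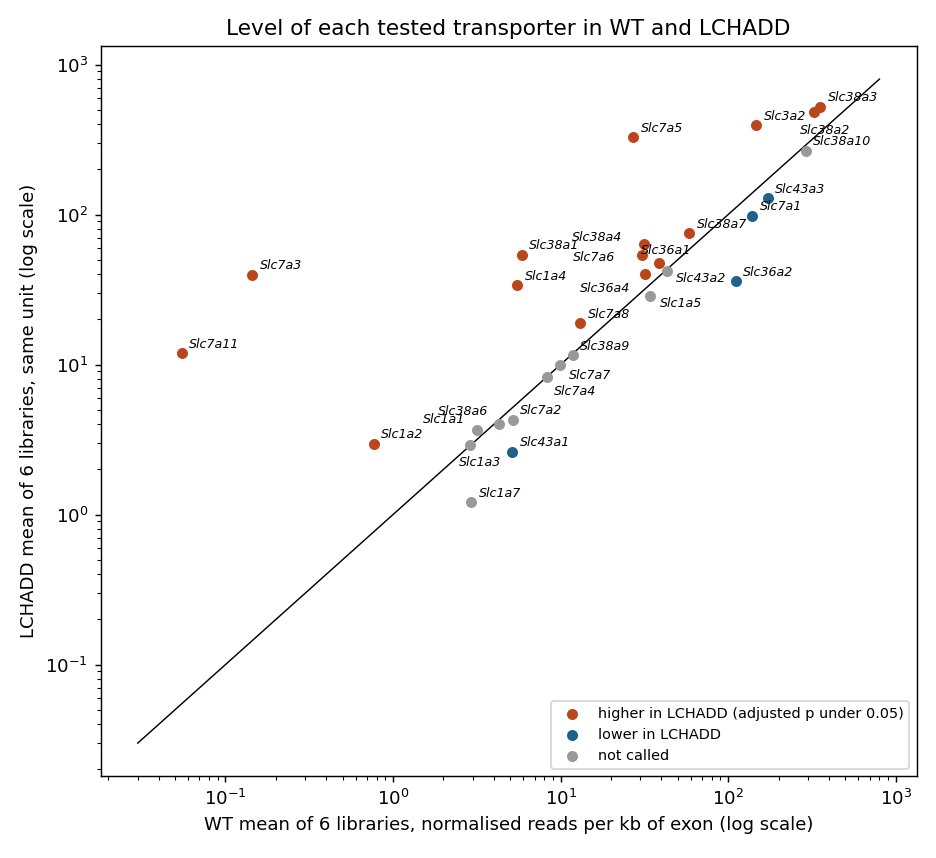
Mean level of each tested transporter in the 6 WT libraries (x axis) and in the 6 LCHADD libraries (y axis), in normalised reads per kb of exon on log scales, with the line of equal levels. Slc7a11 and Slc7a3 lie far above the line at the low end, Slc7a5, Slc38a1 and Slc1a4 lie above it in the middle, and the abundant Slc38a3 and Slc38a2 lie just above it.

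Of the 15 members that rose in the mean of both sexes, 13 had the larger log2 change in females, but no difference of the genotype effect between the sexes passed. The same count over all genes that rose is not given here. Rises were also called more often in females over all genes, in 16.7% against 7.71% in males. For 14 of the 15 the highest value was in LCHADD female 2. That library was the highest in 53.1% of all 2808 genes that rose. No member passed the interaction of genotype and sex in limma, edgeR or DESeq2, where 0.00721% of all genes (1 gene) passed in limma, and 3 members had an unadjusted p under 0.05 in limma (9.83% of all genes did). These were Slc1a2 (1.56, SE 0.50, adjusted p = 0.318), Slc7a8 (0.63, SE 0.23, adjusted p = 0.391) and Slc1a1 (-1.05, SE 0.48, adjusted p = 0.492), given as the female less the male log2 change. Without LCHADD female 3 the value of Slc1a2 was 1.98 and passed (adjusted p = 0.0387). Without LCHADD female 2, 12 members rose and 4 fell in females, 12 rose and 3 fell in males, and 15 rose and 4 fell in the mean of both sexes. Between the sexes within LCHADD, 3 members passed, where 5.77% of all genes did. Slc38a1 was 2.30-fold higher in females (adjusted p = 0.0105), and Slc43a2 and Slc43a3 were lower in females, by log2 values of -0.50 (adjusted p = 0.0323) and -0.35 (adjusted p = 0.0402). All 3 calls were lost on leaving out single libraries, that of Slc38a1 without LCHADD male 2 (adjusted p = 0.0784). Within WT no member passed in limma, edgeR or DESeq2 (0.245% of all genes did in limma), and 5 had an unadjusted p under 0.05 (7.35% of all genes did). Slc38a1 was 0.96 higher on the log2 scale in WT females, with an adjusted p of 0.228.

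Other genes of amino acid handling were counted in 4 lists, of which 2 share Chac1, Cth and Cbs and 2 share Sesn2. The shares over all genes were, as above, 20.3% higher and 20.6% lower in the mean of both sexes, 16.7% and 17.2% in females and 7.71% and 7.77% in males. Of 18 tested genes of the amino acid response, 10 were higher and 2 lower in the mean of both sexes, with 10 and 1 in females and 8 and 1 in males. Atf5, a transcription factor of the ATF4 pathway, went from 457 ± 40.4 to 4748 ± 1301 normalised reads (SD, n = 6), a log2 change of 3.33. Trib3, a pseudokinase that restrains ATF4, rose by 4.00, Nupr1 by 3.01 and Chac1, which breaks down glutathione, by 2.67. The 2 that fell were Vldlr, a lipoprotein receptor, by 0.49 (adjusted p = 5.01e-05), and Ddit4, an inhibitor of mTORC1, by 0.54 (adjusted p = 0.0317). The call of Ddit4 was lost in 7 of the leave-one-out fits, those without WT female 1 or 2, WT male 2 or 3, LCHADD female 3 or LCHADD male 1 or 3 (adjusted p 0.0503 to 0.0906). Vldlr was the fall called in males (-0.30, adjusted p = 0.0484). That call was lost in 13 alternatives, among them edgeR, nuclear-read scaling and each fit without a single WT library. Ppp1r15a and Ppp1r15b, which direct the dephosphorylation of eIF2alpha, did not pass, with changes of 0.23 and 0.09, although that of Ppp1r15a was 0.31 and 0.33 and passed without LCHADD female 1 or LCHADD male 3. Of 12 tested genes of glutathione synthesis and cystine use, 7 were higher and 1 lower, with 7 and 0 in females and 4 and 1 in males. Gclm and Gss, which act in glutathione synthesis, rose by 0.89 and 0.81, and Gpx4, which uses glutathione against lipid peroxides, by 0.52, while Chac2 (-0.10) and Abcc1 (0.06) did not pass. The 1 that fell was Ggt5, which cleaves glutathione conjugates outside cells, by 0.63. The male call of Gclm (0.60) was lost without WT male 1 or 2 or LCHADD male 1 or 2. That of Ggt5 was lost without WT male 1 or 2 or LCHADD male 2 or 3 (adjusted p 0.0647 to 0.118).

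Of 32 tested genes by which mTORC1 senses amino acids, 11 were higher and 3 lower, with 10 and 2 in females and 3 and 1 in males, where 3 of 32 is close to the share over all genes. Mtor itself rose by 0.55 (SE 0.05), Lamtor3, part of its lysosomal anchor, by 0.38, and Sesn2, a leucine sensor that is also an ATF4 target, by 1.49. Castor2, of the arginine sensor family, fell by 1.07 (SE 0.14), Tsc1 and Kptn, both in complexes that restrain mTORC1, fell by 0.23 and 0.25, and Rragd (0.05) and Tsc2 (0.07) did not pass. The male call of Lamtor3 was lost without WT male 1 (adjusted p = 0.0525), that of Tsc1 over both sexes without WT male 2 (adjusted p = 0.0534), and that of Kptn without WT male 1 or LCHADD male 1 (adjusted p 0.0574 to 0.0622). In females the call of Tsc1 was lost in 6 alternatives (adjusted p 0.0751 to 0.114). Of 9 tested amino acid transporters of other families, 3 were higher and 2 lower, with 3 and 1 in females and 2 and 1 in males. Among all genes 40.8% passed in the mean of both sexes, 33.8% in females and 15.5% in males. Slc6a9 (GlyT1), a glycine carrier, went from 9.73 ± 2.97 to 123 ± 83.8 normalised reads (SD, n = 6), a log2 change of 3.37 (SE 0.31). Slc15a4, a lysosomal carrier of histidine and peptides, rose by 0.44, Ctns, which exports cystine from lysosomes, rose by 0.30. Slc16a10, a carrier of aromatic amino acids, fell by 0.49, and Slc6a17, a carrier of neutral amino acids into vesicles, fell by 0.43. The call of Slc6a17 was lost without WT female 1, WT male 3, LCHADD female 1 or LCHADD male 2 or 3 (adjusted p 0.0609 to 0.0777). The call of Ctns was lost without WT female 3, WT male 1, LCHADD female 3 or LCHADD male 3 (adjusted p 0.0556 to 0.0655). Slc16a10 lost its male call on leaving out any single male library (adjusted p 0.0502 to 0.111). Slc15a4 lost its female call in 6 alternatives (adjusted p 0.0585 to 0.152) and its male call without WT male 1 (adjusted p = 0.0564). The abundant taurine carrier Slc6a6 had a change of -0.05 and did not pass. Slc17a7, a carrier of glutamate into vesicles, rose in females (0.60, adjusted p = 0.00289) and had a change of -0.34 in males (adjusted p = 0.0988), which passed in a fit of males alone and without WT female 3 and LCHADD female 2 (adjusted p 0.0205 to 0.0458). The difference between these 2 changes was 0.93 and did not pass (SE 0.19, adjusted p = 0.137).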

How the data were processed

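Gene expression was measured by RNA sequencing in 12 libraries of ventricle tissue, grouped by labelled genotype and sex. Each deposited value is a signal, the authors' read count of a gene divided by a size factor of the library. Per the submitters' processing notes, bcl2fastq, DESeq2 and build GRCm39 were used, without versions. Not given in the sources used here are the aligner, counting tool, annotation and strand setting. In every library all values were whole multiples of 1 step, within 0.01, so whole reads were recovered for the count tests. Symbols, biotypes and exon lengths came from GENCODE vM21 (51719 of 51912 IDs matched), and promoter sequences from RefSeq on GRCm38.p6.

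Genes with at least 10 in at least 3 libraries (13865) were tested as log2(value + 1) in 1 fit of the 4 group means with limma 3.58.1 (trend) in R 4.3.3, and p-values were Benjamini-Hochberg adjusted over all of them at 0.05. An adjusted p is limma's wherever no other tool is named. Log2 changes subtract WT from LCHADD, or males from females, and carry their SE, and the fit was tested on simulated data. Alternatives were edgeR 4.0.16 and DESeq2 1.42.0 on the recovered reads, other scalings, filters and added values, each sex alone, a replicate block, and leaving out libraries. The comparisons between the sexes and their alternatives were added after seeing the data.

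The members, the gene lists and the tests were chosen with earlier results of these data known. Named with all library values were the tested members that failed the filter in WT alone, the heavy chain Slc3a2, Slc7a1 and the most abundant members. Called members past 2-fold in the mean of both sexes whose genotypes did not overlap were given in the same way. Other members are given by changes, ranges or highest values. From each other list, up to 4 genes that passed and up to 2 abundant ones that did not were named, and the other genes that fell were named after their values were seen.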

Additional observations from a re-analysis of the deposited data

How the results depend on the processing

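Of the 52 calls of members over all comparisons, 40 held under every alternative in which the gene was tested, and no called value changed direction. Of 2147 alternative values, 56 lost a call and 27 gained one. All 19 calls in the mean of both sexes held likewise, but a filter at 50 left out Slc1a2 and Slc43a1, so 17 were called there. The number of members called over the leave-one-out fits was 16 to 19 in females, 9 to 15 in males, 19 to 21 in the mean of both sexes, 0 to 1 for the interaction, 0 to 2 between the sexes in WT and 1 to 7 in LCHADD. The number of genes called was 3733 to 5075, 1317 to 3293, 5019 to 6033 and 0 to 186 for the first 4. Without WT female 3 and LCHADD female 2 together, 3317 genes were called in males, 9 for the interaction and 2 members between the sexes in WT. In a fit of males alone 3342 genes were called in males. The interaction gave 2 genes with a filter at 50, 2 with edgeR and 101 with DESeq2. Between the sexes in LCHADD, 1 member was called with nuclear-read scaling, 5 with edgeR and 7 with DESeq2. Same-numbered libraries correlated at -0.106 to 0.0491 in their deviations from the group means, and different-numbered ones at -0.122 to 0.151. No pairing by number was thus seen, though with 3 libraries in a group a weak one could be missed. With the replicate number as a block, 19 members were called in females, 11 in males, 20 in the mean of both sexes, 0 for the interaction, 0 between the sexes in WT and 2 in LCHADD, and 4502, 2016, 5482 and 1 genes in the first 4. In that fit Slc7a6 in males and Slc43a3 between the sexes in LCHADD were not called, and Slc36a1 in females and Slc1a7 in the mean of both sexes were. The cause of these shifts was not tested. Depth limits the members under 10 normalised reads, which were tested only in the fit without a filter.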
